A study of Mus musculus with 12 samples.

Results

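The genes described here are 6 CC chemokines that activated mast cells release, Ccl1, Ccl3, Ccl4, Ccl7, Ccl9 and Ccl24. They were taken by probe name from an nCounter panel of mouse myeloid genes and make up 6 of its 734 endogenous probes. All 6 were among the 545 probes with at least 20 counts in at least 3 libraries, the filter for testing, and all 6 also met it within the unstimulated libraries. Ccl3, Ccl4, Ccl7 and Ccl9 were on the study's own list of genes upregulated in these samples, so their direction here is not independent evidence.

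CC chemokines are small secreted proteins that bind G protein-coupled receptors and draw leukocytes to the cell that makes them. In a mast cell, antigen that crosslinks IgE on its receptor sets off kinase and calcium signalling, which activates the transcription factors NFAT, NF-kB and AP-1 and induces genes for cytokines and chemokines. Mettl3, the catalytic subunit of the enzyme that places N6-methyladenosine on mRNA, is the gene whose loss the study examined.

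Mast cells were grown in vitro from mouse bone marrow for at least 4 weeks with IL-3, in 3 sets numbered 1, 2 and 3. Cas9 cut either Kit, as the control, or Mettl3, a zsGreen reporter followed by a stop and polyadenylation signal was placed at the target by homology-directed repair, and cells with high zsGreen were sorted. Each edited population was left unstimulated or was treated for 4 h with IgE and antigen, which gave 4 groups of 3 libraries. Barcodes bound to the mRNAs in 40 ng of total RNA were counted, and the deposited counts were divided here by a factor from the 20 housekeeping probes of each library, which gives the normalized counts below.

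Both genotypes were edited and sorted, and no unedited cells are among the 12 libraries, so every difference between genotypes is one between 2 edited populations. The cells are cultured, selected for the reporter, and no measurement of chemokine protein was used here. The 4 guides that define the genotypes are given below from the study's guide table, 5′ to 3′, with the adjacent NGG motif read from the genome in capitals.
Kit_1: agtcgggatcaatgcacgtcAGG
Kit_2: aaagccgaggccactcgcacGGG
Mettl3_2: ggacacgtggagctctatccAGG
Mettl3_3: gatggggtaaccaacaatcgAGG
Each guide had 1 exact site in GRCm39. Kit_1 lies at chr5:75767786-75767805 on the minus strand and Kit_2 at chr5:75767877-75767896 on the plus strand, both in exon 2 of Kit. Mettl3_2 lies at chr14:52542420-52542439 on the minus strand in exon 1 of Mettl3, and Mettl3_3 at chr14:52542216-52542235 on the plus strand, outside the exons of the canonical transcript.

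Kit, which encodes the receptor for stem cell factor, had normalized counts of 1856, 2856 and 2826 in the unstimulated libraries labelled c-Kit KO, against 1159, 1613 and 738 in the stimulated ones, in the order of replicates 1, 2 and 3. Kit in libraries labelled Mettl3 KO had 4057, 2533 and 2456 normalized counts without stimulation and 1845, 1771 and 1549.6 with it. The genotypes overlapped in both conditions, and the log2 fold change of Mettl3 KO over c-Kit KO labels was 0.26 ± 0.31 (SE, adjusted p = 0.997) without stimulation and 0.56 ± 0.32 (adjusted p = 0.46) with it. Within same-numbered pairs it was 1.13, −0.17 and −0.20 without stimulation and 0.67, 0.13 and 1.07 with it, so Kit was lower under the c-Kit KO label in 1 of 3 pairs and 3 of 3 pairs. The Kit probe binds 3′ of the edited exon, beyond the inserted polyadenylation signal, and no lower count was called under that label. The panel has no Mettl3 probe. Groups are named as labelled. The study stained cells sorted in this way for protein, but it does not say that the cells of these libraries were stained. Kit fell after stimulation in libraries labelled c-Kit KO (log2 fold change −1.10 ± 0.32 SE, adjusted p = 0.0323, called under 16 of 28 alternatives), with −0.81 ± 0.32 in those labelled Mettl3 KO (adjusted p = 0.0694).

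Endogenous probes took 504238, 625496 and 655936 counts in the unstimulated libraries labelled c-Kit KO, against 531503, 625150 and 651703 in the stimulated ones. The libraries labelled Mettl3 KO had 618014, 571089 and 726601 counts without stimulation and 737910, 677499 and 597937 with it. The housekeeping factor ran from 0.715 to 1.36 and was lowest in the unstimulated library labelled Mettl3 KO of replicate 2. The positive control probes had geometric means of 738 and 768 in the libraries labelled c-Kit KO of replicate 1, against 1195 to 1706 in the other 10. The 8 negative control probes averaged 7.13 to 22.8 counts per library, and their mean plus 2 SD, called the background limit here, came to 18.0 to 44.3 normalized counts. Ccl24 was under that limit in 4 of 6 unstimulated libraries and in 0 of 6 stimulated ones, and the other 5 members were above it in all 12.

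Mast cell markers matched the labelled cell type. All 11 of the list were above the background limit in each of the 12 libraries, and Cpa3, a mast cell protease, was the most abundant, with 46249.9 to 229736 normalized counts. Their summed normalized counts were 438110.0, 460648, 355331 in the unstimulated and 244276, 305024, 183823 in the stimulated libraries labelled c-Kit KO. The sums under the Mettl3 KO label were 368640.0, 504071, 399469 without stimulation and 165872, 258160.0, 176573 with it. All 6 stimulated libraries had lower sums than all 6 unstimulated ones. In this bulk RNA, fewer cells of a type and less RNA per cell cannot be told apart.

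After stimulation with IgE and antigen, all 6 chemokines rose in both genotypes. Ccl1 encodes the ligand of the receptor Ccr8, which T helper cells of the type that drives allergy carry. Normalized counts of Ccl1 in libraries labelled c-Kit KO were 86.3, 166 and 123 without stimulation, against 6531, 24287 and 23618.5 with it. Under the Mettl3 KO label they were 122, 2711 and 133 without stimulation and 49274, 85571 and 34899 with it. The lowest stimulated library, at 6531, was above the highest unstimulated one, and the unstimulated library labelled Mettl3 KO of replicate 2, at 2711, stood apart from the other 5 unstimulated ones at 86.3 to 166. Group means were 125 ± 40.1 and 18145 ± 10064 under the c-Kit KO label and 988 ± 1492 and 56581 ± 26115 under the Mettl3 KO label (SD, n = 3). The fitted log2 fold change was 7.18 ± 1.27 (SE, adjusted p = 0.00287) in the former and 5.84 ± 1.20 (adjusted p = 0.00354) in the latter, higher in 3 of 3 same-numbered pairs each.

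Ccl3 (MIP-1α), Ccl4 (MIP-1β) and Ccl9 (MIP-1γ) are macrophage inflammatory proteins. Ccl3 and Ccl9 bind Ccr1. Ccl3 had 45.2, 200 and 28.7 normalized counts in the unstimulated libraries labelled c-Kit KO, against 16477.5, 6332 and 19890.2 in the stimulated ones. Under the Mettl3 KO label it had 127, 1244 and 23.4 without stimulation and 75765, 75209.8 and 17323.5 with it. In both genotypes replicate 2 had the highest unstimulated count, and no stimulated library overlapped an unstimulated one. The unstimulated counts of replicate 3 lay just above their background limits of 27.7 (c-Kit KO label) and 22.2 (Mettl3 KO label). The log2 fold change was 7.29 ± 1.47 (SE, adjusted p = 0.00592) under the c-Kit KO label and 6.92 ± 1.44 (adjusted p = 0.0037) under the Mettl3 KO label.

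Ccl4 had 93.1, 127 and 81.6 normalized counts in the unstimulated libraries labelled c-Kit KO, against 1789, 1249 and 2057 in the stimulated ones. Under the Mettl3 KO label it had 118, 379 and 67.7 without stimulation and 12269.7, 15271 and 1961 with it. Stimulated and unstimulated libraries did not overlap, and replicate 3 of the stimulated libraries labelled Mettl3 KO, at 1961, lay within the range of the stimulated libraries labelled c-Kit KO. The log2 fold change was 4.08 ± 0.78 (SE, adjusted p = 0.00417) and 5.71 ± 0.84 (adjusted p = 0.000555) in the 2 genotypes. On the log2 scale, the Ccl3 value minus the Ccl4 value of one library ran from −1.49 to 1.71 in the unstimulated libraries and from 2.30 to 3.27 in the stimulated ones. Probes differ in efficiency, so this difference is read between libraries and not as a ratio of the mRNAs.

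Ccl9 had 274, 321 and 71.8 normalized counts in the unstimulated libraries labelled c-Kit KO, against 4891, 3618 and 5969 in the stimulated ones. Under the Mettl3 KO label it had 380.4, 635 and 74.6 without stimulation and 16252, 22226 and 6511 with it. The lowest unstimulated count was that of replicate 3 in both genotypes, and the stimulated libraries were all above the unstimulated ones. The log2 fold change was 4.44 ± 0.80 (SE, adjusted p = 0.00301) under the c-Kit KO label and 5.37 ± 0.84 (adjusted p = 0.000652) under the Mettl3 KO label.

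Ccl7 (MCP-3) attracts monocytes and eosinophils through Ccr1, Ccr2 and Ccr3. It had 31.5, 280.0 and 38.6 normalized counts in the unstimulated libraries labelled c-Kit KO, against 3354, 1456 and 1321 in the stimulated ones. Under the Mettl3 KO label it had 82.2, 824 and 43.4 without stimulation and 7921, 7309 and 2090.1 with it. Replicate 2 was again the highest of the unstimulated libraries in each genotype, and the lowest stimulated library, at 1321, was above it. The log2 fold change was 4.13 ± 1.19 (SE, adjusted p = 0.0323) and 4.20 ± 1.19 (adjusted p = 0.0191).

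Ccl24 (eotaxin-2) attracts eosinophils through Ccr3. It had 17.8, 26.4 and 38.6 normalized counts in the unstimulated libraries labelled c-Kit KO, against 160.0, 250.2 and 283 in the stimulated ones. Under the Mettl3 KO label it had 27.4, 40.6 and 31.2 without stimulation and 124, 151 and 190.4 with it. Stimulated libraries lay above unstimulated ones without overlap, and the unstimulated values were at or near the background limit. The log2 fold change was 3.05 ± 0.36 (SE, adjusted p = 0.00039) under the c-Kit KO label and 2.24 ± 0.35 (adjusted p = 0.000652) under the Mettl3 KO label, and became 4.14 and 3.20 after each library's negative control mean was subtracted.

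**Figure D1:**
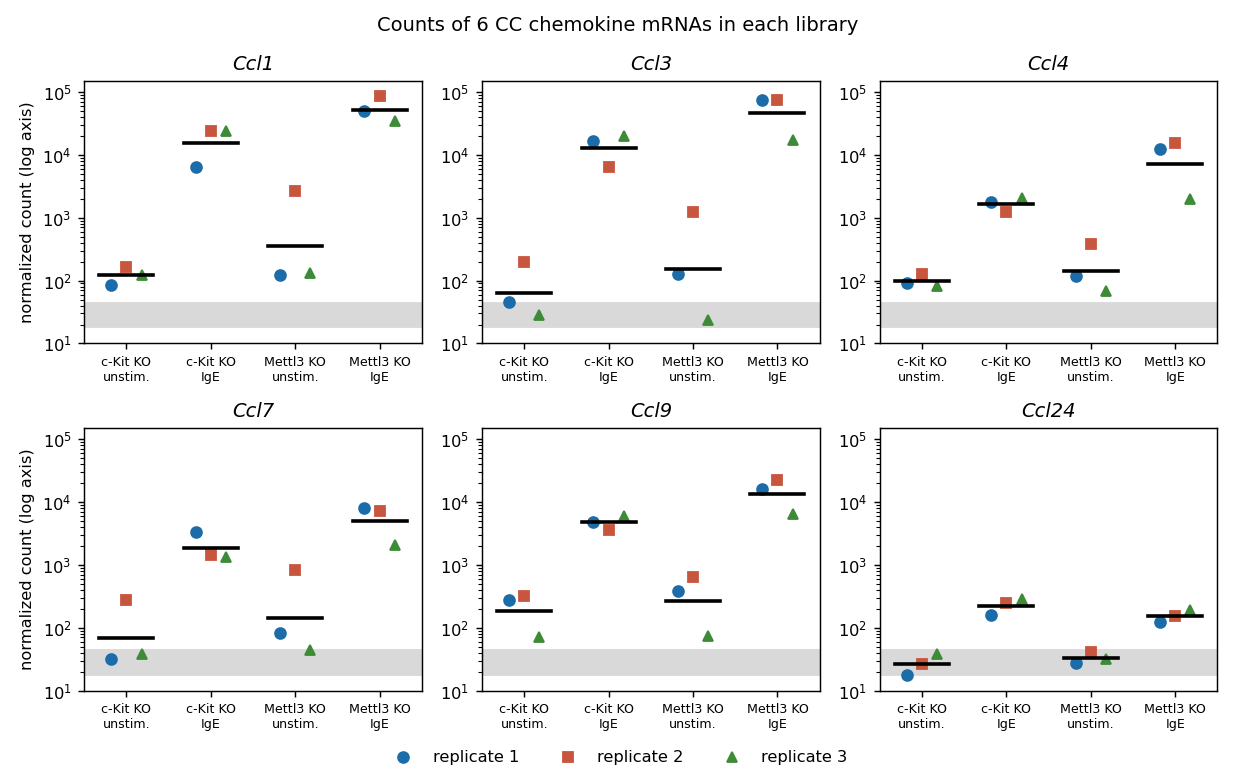
Normalized counts of the 6 chemokines in each library on a log axis, by group, with bars at the geometric mean of 3 libraries and a grey band for the background limits of the libraries (18.0 to 44.3). Stimulated libraries lie above unstimulated ones for each gene, and the unstimulated library labelled Mettl3 KO of replicate 2 is the highest unstimulated one for Ccl1 (2711), Ccl3, Ccl4, Ccl7 and Ccl9. Its Ccl24 count (40.6) is below its own background limit (44.3).

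In libraries labelled c-Kit KO, 6 of 6 members passed an adjusted p under 0.05 upward, against 12.1% of the 545 genes, and 66 genes rose and 38 fell (19.1% in all). With the replicate number as a block in the model, 6 members and 157 genes were called, against 104 without it. The study's thresholds are a fold change of 1.5 or more with p up to 0.05 before adjustment. They are applied here to edgeR p values unless another fit is named. Limma without moderation on the compared groups is the fit closest to the study's own test. All 6 members passed these thresholds, as 18.9% of the genes did upward. All 6 had stimulated libraries all above the unstimulated ones, against 18.3% of the genes. The members' median log2 fold change was 4.29, against −0.05 over all genes tested, and Ccl3 and Ccl1 had the largest and next largest rise of the 545. Ccl7 missed the threshold when 1 library labelled c-Kit KO was left out in 4 cases. Its adjusted p was then 0.12 without unstimulated replicate 1, 0.109 without unstimulated replicate 3, 0.0652 without stimulated replicate 1 and 0.0667 without stimulated replicate 3, in a range of 0.00148 to 0.225 over 28 alternatives. Without all 4 libraries of replicate 1, Ccl1 and Ccl24 were the 2 members called. Without unstimulated replicate 2 the log2 fold change was 8.59 for Ccl3 and 5.86 for Ccl7.

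In libraries labelled Mettl3 KO, 6 of 6 members again passed upward, against 21.5% of the 545 genes, with 117 genes up and 59 down (32.3% in all). All 6 also passed the study's thresholds upward (26.1% of the genes) and had no overlap of the groups (26.2% of the genes). The members' median log2 fold change was 5.54, against 0.02 over all genes tested. The unstimulated library of replicate 2 held the fitted rise down. Without it the log2 fold change was 8.79 for Ccl1, 9.55 for Ccl3, 6.73 for Ccl4, 6.52 for Ccl7 and 6.04 for Ccl9. Ccl7 missed the threshold without unstimulated replicate 1 (adjusted p = 0.0663) or unstimulated replicate 3 (adjusted p = 0.0513), in a range of 0.00103 to 0.144 over the alternatives. Limma without moderation on the compared groups, with adjustment, called 5 of 6 under the c-Kit KO label and 2 of 6 under the Mettl3 KO label. At the study's unadjusted thresholds the same test passed 6 of 6 in both.

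The chemokines took a large part of the counts of stimulated cells. The 6 together made up 0.0793%, 0.156% and 0.0649% of endogenous counts in the unstimulated libraries labelled c-Kit KO, against 5.89%, 5.90% and 11.1% in the stimulated ones. In libraries labelled Mettl3 KO they made up 0.137%, 0.730% and 0.0592% without stimulation and 24.3%, 24.7% and 12.7% with it. The stimulated libraries labelled Mettl3 KO were thus each above those labelled c-Kit KO, with replicate 3 closest to them. The exact (Clopper-Pearson) 95% interval was 12.6% to 12.8% for that library and 11.1% to 11.2% for the stimulated library labelled c-Kit KO of replicate 3, and these intervals cover counting error only. Ccl3 had the most counts of any endogenous probe in stimulated replicate 1 labelled Mettl3 KO and Ccl1 in replicate 2, and Cpa3 had the most in the other 10 libraries. Of the 10 endogenous probes with the most counts, members were 1, 1 and 2 in the stimulated libraries labelled c-Kit KO, with 4, 3 and 2 in those labelled Mettl3 KO, against 0 in each unstimulated library.

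Whether loss of Mettl3 alters the chemokines of unstimulated cells was asked by comparing the genotypes at rest. All 6 had a positive fitted difference, beside 60.4% of the 545 genes, with log2 fold changes of libraries labelled Mettl3 KO over those labelled c-Kit KO of 2.98 ± 1.05 for Ccl1, 2.34 ± 1.19 for Ccl3, 1.43 ± 1.08 for Ccl7, 0.89 ± 0.70 for Ccl4, 0.71 ± 0.71 for Ccl9 and 0.24 ± 0.36 for Ccl24 (SE). By the edgeR quasi-likelihood test, 0 of 6 passed the adjusted threshold, against 0% of the 545 genes, and the adjusted p was 0.997 for each. DESeq2 and limma also called 0. In the edgeR fit 1 member, Ccl1, had an unadjusted p under 0.05 (0.0157) and passed the study's thresholds, as 0.734% of the genes did upward. Those thresholds were passed by 0 members in limma without moderation, the fit closest to the study's own test, and in limma with moderation. Also 0 passed with the replicate number as a block, and without unstimulated replicate 1 labelled c-Kit KO or replicate 2 labelled Mettl3 KO. Leaving out replicate 2 in all groups also gave 0. Without unstimulated replicate 2 labelled c-Kit KO, 3 members passed. The number was 2 without replicate 3 in all groups, and without unstimulated replicate 1 or 3 labelled Mettl3 KO. The groups overlapped for all 6, with 0 members above without overlap, against 2.75% of the genes.

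When libraries were left out, the fitted difference at rest moved most without one of replicate 2 for 5 of 6 and without replicate 3 for Ccl24. The log2 differences within same-numbered pairs, in the order of replicates 1, 2 and 3, were 0.49, 4.02 and 0.11 for Ccl1, 1.47, 2.63 and −0.28 for Ccl3, and 0.33, 1.57 and −0.27 for Ccl4. They were 1.36, 1.55 and 0.17 for Ccl7, 0.47, 0.98 and 0.06 for Ccl9, and 0.59, 0.60 and −0.30 for Ccl24. The median over the 6 was 0.54 in replicate 1, 1.56 in replicate 2 and −0.11 in replicate 3, beside medians over all genes of 0.26, 0.17 and −0.11. Without the unstimulated library labelled Mettl3 KO of replicate 2 the fitted values became 0.02 for Ccl1, −0.28 for Ccl3, −0.12 for Ccl4, −0.90 for Ccl7, 0.03 for Ccl9 and 0.07 for Ccl24. Leaving out the unstimulated library labelled c-Kit KO of replicate 2, where Ccl3 and Ccl7 were also highest, gave 3.65 for Ccl3 and 3.16 for Ccl7. Each of these 2 fits keeps the other genotype's library of that number. Without all 4 libraries of replicate 2 the values were 0.28 for Ccl1, 1.03 for Ccl3, 0.08 for Ccl4, 0.83 for Ccl7, 0.40 for Ccl9 and 0.03 for Ccl24, and without those of replicate 3 they were 3.48, 2.48, 1.17, 1.53, 0.77 and 0.60 for the same genes.

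Whether loss of Mettl3 alters the chemokines of activated cells was asked in the same way after stimulation. Here 5 of 6 had a positive fitted difference, beside 66.6% of the genes. Ccl4 had the largest, at 2.53 ± 0.72 on the log2 scale (SE, unadjusted p = 0.00437, adjusted p = 0.134), followed by Ccl3 at 1.98 ± 1.15, Ccl1 at 1.64 ± 0.99, Ccl9 at 1.64 ± 0.71 and Ccl7 at 1.498 ± 1.07. Ccl24 had −0.57 ± 0.33 (adjusted p = 0.463), negative under each scaling run. The edgeR test called 0 of 6 members, against 0.917% of the 545 genes, which are Il2, Gem, Il3, Timp3 and Ccr3. With the replicate number as a block 0 members and 2 genes were called, against 5 genes without it. On 11 libraries, without stimulated replicate 3 labelled Mettl3 KO, the block called 1 member, Ccl4, and 46 genes. The number of genes called was 0 without stimulated replicate 1 or 2 labelled c-Kit KO, 32 without stimulated replicate 3 labelled Mettl3 KO, and 1 to 7 without another single library. DESeq2 called 23 genes, limma 4, and positive control scaling with edgeR 2. The other scalings, filters and the background subtraction gave 4 to 6. On only the compared groups, edgeR and limma without moderation each called 0 genes after adjustment. The number was also 0 without all libraries of replicate 1, without those of replicate 2, and without both c-Kit KO libraries of number 1. It was 36 without those of replicate 3. Ccl4 and Ccl9 had an unadjusted edgeR p under 0.05 and passed the study's thresholds with it, as 13% of the genes did upward. By limma without moderation on the compared groups, the fit closest to the study's own test, 0 members passed those thresholds. The members past them numbered 1 each by limma, with the block and with positive control scaling, 3 by DESeq2 and 5 by edgeR on only the compared groups. Members with no overlap between genotypes were Ccl1 and Ccl9, 2 of 6, against 14.3% of the genes. The members' median log2 fold change was 1.64, against 0.20 over all genes.

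Replicate 3 differed from the other pairs after stimulation. The study numbers its stimulated library labelled Mettl3 KO in 2 different ways, so the pairing of that library is in doubt. Its residuals correlated with those of the other 3 libraries numbered 3 at r = 0.381, 0.289 and 0.483. The log2 difference within replicate 3 was 0.56 for Ccl1, −0.20 for Ccl3, −0.07 for Ccl4, 0.66 for Ccl7 and 0.13 for Ccl9. In replicate 1 it was 2.92 for Ccl1, 2.20 for Ccl3, 2.78 for Ccl4, 1.24 for Ccl7 and 1.73 for Ccl9, and in replicate 2 it was 1.82, 3.57, 3.61, 2.33 and 2.62 for the same genes. Ccl24 was instead lower in the libraries labelled Mettl3 KO in 3 of 3 pairs, by −0.36, −0.72 and −0.57 in replicates 1, 2 and 3. The median over the 6 was 1.97, 2.47 and 0.03, beside medians over all genes of 0.17, 0.25 and 0.17. Without the stimulated library labelled Mettl3 KO of replicate 3, Ccl4 passed the adjusted threshold with a log2 fold change of 3.02 (adjusted p = 0.00891), and DESeq2 called Ccl4 on all 12 libraries at 2.24 (adjusted p = 0.0118), in a range of 0.00891 to 0.86 over the alternatives. Limma called 0. Without the 4 libraries of replicate 3, Ccl4 and Ccl9 were called, at 3.18 and 2.18.

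**Figure D2:**
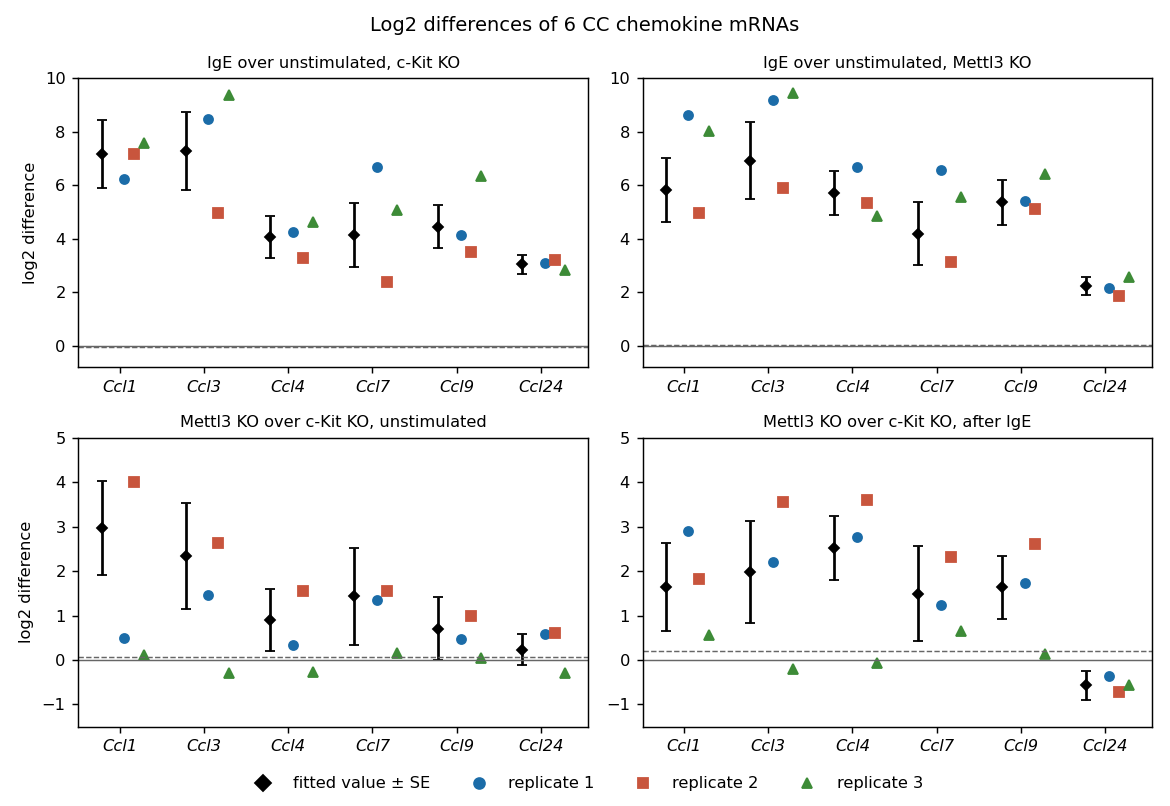
Log2 fold changes of the 6 chemokines in the 4 comparisons, with diamonds for the fitted value ± SE, symbols for the same-numbered pairs and a dashed line at the median of the 545 genes. After stimulation the pair of replicate 3 lies near 0 for Ccl3 (−0.20), Ccl4 (−0.07) and Ccl9 (0.13), and Ccl24 is negative in 3 of 3 pairs. The pairing of stimulated replicate 3 labelled Mettl3 KO, which enters 2 of the panels, is in doubt.

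The response itself was compared between genotypes by an interaction, the log2 response in libraries labelled Mettl3 KO minus that in libraries labelled c-Kit KO. It was −1.34 ± 1.39 for Ccl1, −0.37 ± 1.59 for Ccl3, 1.64 ± 0.98 for Ccl4, 0.07 ± 1.51 for Ccl7, 0.93 ± 0.99 for Ccl9 and −0.81 ± 0.48 for Ccl24 (SE). The edgeR test called 0 of 6, against 0% of the genes, with an adjusted p of 0.993 for each, 0 members at an unadjusted p under 0.05, and 0 by DESeq2 or limma. The study's thresholds were passed by 0 members and upward by 4.04% of the genes in the main fit. With the replicate number as a block, 1 member passed, also on 11 libraries without stimulated replicate 3 labelled Mettl3 KO. Without replicate 3 in all groups, 2 passed. The number was 1 without unstimulated replicate 3 labelled c-Kit KO, and without unstimulated replicate 2 or stimulated replicate 3 labelled Mettl3 KO. The sign changed under some alternatives for Ccl1 (−1.97 to 1.62), Ccl3 (−1.67 to 2.26) and Ccl7 (−1.66 to 2.39), each highest without the unstimulated library labelled Mettl3 KO of replicate 2. It was kept under all 28 for Ccl4 (1.17 to 2.65), Ccl9 (0.44 to 1.601) and Ccl24 (−1.17 to −0.53). The comparisons share libraries, so their values for one gene are not independent of each other.

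Likeness of library profiles was measured as the root mean square difference of log2 values over the 12 libraries, after each gene's mean was subtracted, against 544 other genes. Ccl1 and Ccl3 were each other's nearest gene at 1.10, and the nearest genes outside the 6 were Csf2, the gene of GM-CSF (1.15 and 1.25), and Crabp2, a retinoic acid binding protein (1.24 and 1.61). Olr1, an oxidized LDL receptor, was the nearest such gene of Ccl4 (0.41), Ccl9 (0.73) and Ccl7 (0.91). The next was the cytokine gene Il13 for Ccl4 (0.70) and Rgs16, a regulator of G protein signalling, for Ccl9 (0.84) and Ccl7 (1.09). Ccl24 was nearest to Ceacam1, an adhesion receptor (0.48), and Tnfsf4, the gene of OX40 ligand (0.49), and its nearest chemokine of the 6, Ccl4, was at 1.74. The measure keeps the size of changes, and the SD over libraries was 1.37 for Ccl24 and 2.68 for Ccl4, so this distance reflects amplitude as well as shape. The log2 difference of Ccl9 minus Ccl24 was 3.85 to 4.93 in the stimulated libraries labelled c-Kit KO and 5.09 to 7.19 in those labelled Mettl3 KO, without overlap. This largely restates the higher Ccl9 and lower Ccl24 given above, and how many other gene pairs separate so was not counted. In the same order, the genotypes overlapped for Ccl1 minus Ccl3 (−1.34 to 1.94 and −0.62 to 1.01). They also overlapped for Ccl3 minus Ccl4 (2.34 to 3.27 and 2.30 to 3.14).

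Apart from Ccl24, the chemokines lie on chromosome 11, where 11 CC chemokine genes of the panel span 1629113 bases of GRCm39. Ccl7 (chr11:81936532-81938351, plus strand) and Ccl1 (chr11:82067483-82070744, minus strand) lie in one group of genes. Ccl9 (chr11:83463745-83469467, minus strand), Ccl3 (chr11:83538670-83540191, minus strand) and Ccl4 (chr11:83553383-83555509, plus strand) lie in another. The gap between the groups, from Ccl1 to Ccl5, is 1345857 bases. Ccl3 and Ccl4 are neighbours on the panel with 13191 bases between them, on opposite strands. Ccl24 lies at chr5:135598668-135601905 on the minus strand. Ccl9 has 4 exons and the other members have 3. Not every neighbour passed the adjusted threshold after stimulation. Ccl2, which is 8252 bases from Ccl7, had log2 fold changes of 1.35 (adjusted p = 0.116) and 1.49 (adjusted p = 0.0606) in libraries labelled c-Kit KO and Mettl3 KO. It passed the study's thresholds in both, as 18.9% and 26.1% of the genes did upward.

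**Figure D3:**
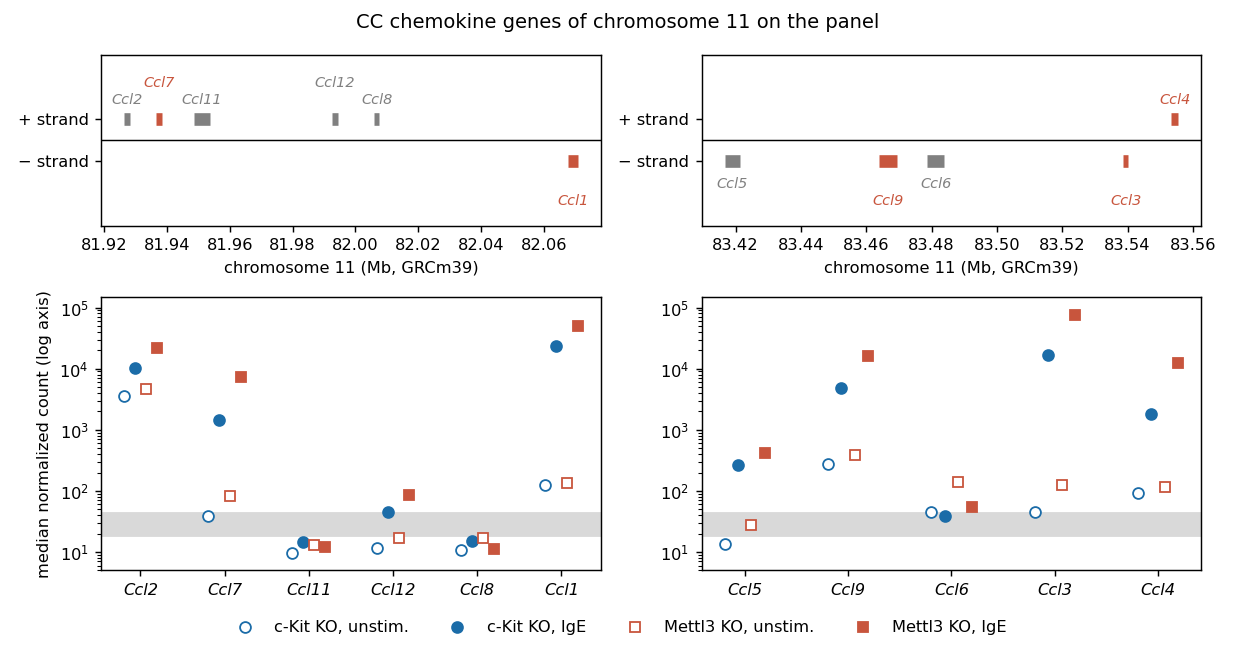
Positions on chromosome 11 (Mb, GRCm39) of 11 CC chemokine genes of the panel, members in red, above their median normalized counts in the 4 groups on a log axis, with a grey band for the background limits. The 5 members are above the band in the stimulated groups, and Ccl11 and Ccl8 between them are below it in all 4.

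Promoters are shown because the members rose together, and 3 of 6, Ccl1, Ccl3 and Ccl9, matched an entry in the promoter table taken from RefSeq (GRCm38.p6). The 250 bases before each gene start are given 5′ to 3′ in the direction of transcription, from the minus strand of chr11:82179813-82180062, chr11:83649379-83649628 and chr11:83578637-83578886. Capitals mark the core GGAAA bound by NFAT, on either strand, and the kB consensus bound by NF-kB, which overlaps GGAAA in Ccl9.
Ccl1: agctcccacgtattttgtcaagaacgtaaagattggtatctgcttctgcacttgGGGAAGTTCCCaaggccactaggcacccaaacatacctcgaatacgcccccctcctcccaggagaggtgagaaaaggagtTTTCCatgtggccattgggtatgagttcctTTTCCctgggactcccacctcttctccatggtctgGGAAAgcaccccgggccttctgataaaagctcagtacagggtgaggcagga
Ccl3: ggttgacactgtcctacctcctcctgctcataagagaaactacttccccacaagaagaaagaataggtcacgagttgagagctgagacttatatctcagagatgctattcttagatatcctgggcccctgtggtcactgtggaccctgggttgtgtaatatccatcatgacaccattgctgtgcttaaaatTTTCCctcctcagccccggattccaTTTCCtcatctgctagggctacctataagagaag
Ccl9: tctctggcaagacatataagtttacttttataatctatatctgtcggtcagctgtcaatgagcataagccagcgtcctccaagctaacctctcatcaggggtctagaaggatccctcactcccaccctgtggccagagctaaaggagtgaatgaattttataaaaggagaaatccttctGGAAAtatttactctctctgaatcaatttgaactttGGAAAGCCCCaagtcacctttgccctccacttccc
GGAAA occurs 3 times in Ccl1, 2 times in Ccl3 and 2 times in Ccl9, and 55.6% of 32851 promoter windows of the same length hold it at least once. The kB consensus occurs in Ccl1, on both strands at overlapping positions, and 1 time in Ccl9, and in 7.25% of the windows. TGANTCA, the AP-1 motif, occurs 1 time in Ccl9 and in 6.75% of the windows. A match describes these letters and says nothing of binding in mast cells.

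Ccr1, Ccr2 and Ccr3, receptors for ligands among the 6, passed the filter, and Ccr8, the receptor of Ccl1, did not. Ccr1, the receptor of Ccl3, Ccl7 and Ccl9, rose by 1.11 ± 0.34 (SE, adjusted p = 0.0382) in libraries labelled c-Kit KO and by 1.28 ± 0.34 (adjusted p = 0.013) in those labelled Mettl3 KO, called under 14 and 24 of 28 alternatives. Its mean normalized count went from 223 ± 26.2 to 482 ± 126 in the former and from 159 ± 72.2 to 388 ± 51.7 in the latter (SD, n = 3). Ccr3, the receptor of Ccl24 and Ccl7, rose in libraries labelled Mettl3 KO, from 31.0 ± 13.1 to 133 ± 84.3, by 2.11 ± 0.48 (adjusted p = 0.00633), with 39.0 ± 10.4 and 24.98 ± 2.29 in those labelled c-Kit KO (−0.63 ± 0.49, adjusted p = 0.42). Ccr3 was higher in stimulated libraries labelled Mettl3 KO than in those labelled c-Kit KO, by 2.41 ± 0.49 (adjusted p = 0.0387), and its interaction of 2.75 ± 0.68 had an adjusted p of 0.557. The stimulated libraries labelled c-Kit KO, at 23.2 to 27.6, lie near their background limits of 21.3 to 33.9, so this fold change is taken against background. With the negative control means subtracted it was 3.63 and was not called (adjusted p = 0.096). The call held under 11 of 28 alternatives. It was lost without any 1 of the 6 libraries labelled c-Kit KO, and without unstimulated replicate 1 or stimulated replicate 1 or 2 labelled Mettl3 KO (adjusted p = 0.058 to 0.206). By limma the adjusted p was 0.0672. Ccr2 had −0.17 ± 0.38 and −0.32 ± 0.37 after stimulation, near the background limit, and was not called.

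The panel has 15 other CC chemokines, of which 9 were tested. After stimulation 3 rose and 0 fell in each genotype, and the median log2 fold change of the 9 was 0.26 under the c-Kit KO label and 1.04 under the Mettl3 KO label, beside −0.05 and 0.02 over all genes and 4.29 and 5.54 over the 6 members. The risers were Ccl5 (4.00 and 4.54), Ccl12 (2.18 and 2.36) and Ccl17 (2.55 and 2.68), in the order of those genotypes. Beside 3 of 9 in each stand 12.1% and 21.5% of all genes upward. Ccl5, Ccl12 and Ccl17 were above the background limit in 7, 6 and 7 of 12 libraries, so their fold changes are taken against counts near background. Ccl17 was called under 7 and 23 of 28 alternatives. Of 13 CXC and CX3C chemokines, 8 were tested. Cxcl14 rose in both (2.55 and 3.21), Cxcl2 rose in libraries labelled Mettl3 KO (2.12, adjusted p = 0.0175), and Cxcl5, near background, had −0.90 in those labelled c-Kit KO (adjusted p = 0.048, called under 5 of 26 alternatives). Cxcl14 was above the limit in 6 of 12 libraries, Cxcl2 in 3 and Cxcl5 in 0, so these values too are against counts near background. The median of the 8 was −0.19 and −0.05.

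Of 11 genes of the NF-kB, NFAT and AP-1 pathways, 1 rose and 1 fell in libraries labelled c-Kit KO (median 1.14), and 6 rose and 1 fell in those labelled Mettl3 KO (median 1.80), beside 12.1% and 21.5% of all genes upward. The study's thresholds were passed in either direction by 8 of 11 and 10 of 11, beside 33.8% and 41.7% of all genes. Nfatc1, a calcium-activated factor, rose in both, by 0.93 ± 0.29 and 1.80 ± 0.29 on the log2 scale (SE), called under 12 and 27 of 28 alternatives, and Nfatc2 was the gene that fell in both (−1.17 ± 0.34 and −1.498 ± 0.34). In libraries labelled Mettl3 KO, the risers also included Atf3, a stress-induced factor of the AP-1 family (5.89 ± 0.97), and the NF-kB inhibitors Nfkbia (2.25 ± 0.53) and Tnfaip3 (2.25 ± 0.56). Atf3 was above the background limit in 6 of 12 libraries and Nfkbia in 10, so their fold changes start from counts near it. Between genotypes after stimulation 0 of the 11 were called by edgeR, 5 passed the study's thresholds in either direction, beside 14.1% of all genes, and the median was 0.63 beside 1.64 over the 6 members. Their interaction was called for 0 of 11, with 3 past the study's thresholds, beside 4.04% of all genes, so a difference in response between genotypes was not shown.

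Markers of other cell types were read beside the chemokines. Of 15 macrophage markers, Cd68, which mast cells also express, was the most abundant, above the background limit in all 12 libraries. Adgre1 was above it in 5, C1qa in 3 and Itgam in 1, and Csf1r, Mrc1, Marco, Cd14, Cd163, Mertk, Siglec1, C1qb, C1qc and Mpeg1 in 0. The summed normalized counts of the list were 344, 342, 329 and 383, 369, 257 in the unstimulated and stimulated libraries labelled c-Kit KO. The sums in libraries labelled Mettl3 KO were 523, 549.7, 288 and 570.2, 506, 331. Replicates 1 and 2 of the libraries labelled Mettl3 KO thus had the highest sums in both conditions, with Cd68 at 280.0, 245, 339 and 260, as they had the highest Ccl1, Ccl3, Ccl4, Ccl7 and Ccl9 after stimulation. Their part in the chemokine counts was not tested. None of the 9 macrophage markers tested was called in a comparison, by edgeR or by the study's thresholds.

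Of 10 neutrophil markers, Fcnb was the most abundant, at 22.7 to 61.9 normalized counts and above the background limit in 11 libraries, with Mmp8 in 2 and the other 8 in 0. Of these 8, Mpo passed the study's thresholds between genotypes after stimulation (0.89 ± 0.38 SE, adjusted p = 0.292). Of 9 lymphocyte markers, Nkg7 was the most abundant (6.85 to 118), by its mean over libraries, above the limit in 6 libraries, beside Cd247 in 7, Cd27 in 2, Klrk1 in 1 and the other 5 in 0. Nkg7 had 17.7 ± 10.5 and 60.2 ± 38.9 normalized counts (SD, n = 3) without and with stimulation in libraries labelled c-Kit KO, a log2 fold change of 1.73 ± 0.72 (SE) that passed the study's thresholds and was not called (adjusted p = 0.116). In those labelled Mettl3 KO it was 1.31 ± 0.70 (adjusted p = 0.188). Of 7 eosinophil markers, Siglecf rose after stimulation in libraries labelled c-Kit KO (1.58 ± 0.48 SE) and Mettl3 KO (2.18 ± 0.48), called under 11 and 25 of 27 alternatives and above the limit in 6 libraries, and the other 6, Epx, Prg2 and Prg3 among them, were above it in 0. Of 6 dendritic cell markers, H2-Ab1 was the most abundant (12.6 to 36.3), above the limit in 2 libraries, as Itgax was, and the other 4 in 0. On the mast cell list, 1 marker rose and 3 fell in libraries labelled c-Kit KO (median −0.50), and 1 rose and 4 fell in those labelled Mettl3 KO (median −0.74). Over all genes, 66 rose and 38 fell in the former (median −0.05), against 117 and 59 of 545 in the latter (median 0.02). The marker that rose in both was Hdc, the gene of histidine decarboxylase (2.22 ± 0.67 and 2.27 ± 0.67).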

How the data were processed

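The authors deposited raw counts of barcodes for 768 probes in 12 samples, and titles matched every column to a sample, with 0 unmatched. Counts were divided by a factor from the geometric mean of the 20 housekeeping probes, which were taken by name. Endogenous probes with at least 20 counts in at least 3 libraries were fitted in 1 model of the 4 groups by the edgeR quasi-likelihood test with Benjamini-Hochberg adjustment over the 545 tested (edgeR 4.0.16, R 4.3.3), with DESeq2 1.42.0 and limma 3.58.1 as alternatives. Pair differences used log2(normalized count + 1). Residuals of same-numbered libraries correlated in all 18 pairs (r from 0.136 to 0.521), and the numbers were read as pairing samples across groups. Whether same-numbered libraries share a culture or only their processing was not tested. The pairing of 1 stimulated library is in doubt because the study numbers it in 2 ways. The main fit did not use the numbers, and a block was an alternative. The members and lists were chosen with earlier results of these data known. Named genes are the 6 members, up to 4 called genes of each list and comparison by p, receptors, 2 nearest profiles per member, and Kit. The results of 2 listed genes are not reported here. Hdc, Siglecf and the 5 genes called between genotypes after stimulation were named after their values were seen. The 28 alternatives changed scaling, filter, background, test, groups, block or libraries, and 2 were chosen after seeing the data. The tests were tried on simulated counts with a single setting of the spread for all genes and a change in only the stimulated c-Kit KO group. That trial does not show how often calls are wrong in these data. Positions are from GRCm39 with GENCODE.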

Additional observations from a re-analysis of the deposited data

How the results depend on the processing

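Of the 28 alternatives, 15 left out 1 library or 1 replicate number, and 2 more, chosen after seeing the data, left out 1 and 2 libraries. Some left 2 per group. The response to stimulation kept its direction for the 6 members in both genotypes under all 28. The number called in libraries labelled c-Kit KO was 2 to 6 when libraries were left out, and in libraries labelled Mettl3 KO 4 to 6, with 5 and 2 by limma on the compared groups without moderation, where 6 and 6 passed the study's unadjusted thresholds. Ccl7 was called under 20 and 24 of 28. After stimulation, 0 members were called between genotypes, 1 by DESeq2, 0 to 2 with libraries left out, and 1 (Ccl4) with a block on 11 libraries, without stimulated Mettl3 KO number 3, which the study numbers in 2 different ways. Between genotypes at rest, leave-outs gave −0.28 to 3.65 for Ccl3, −0.12 to 1.30 for Ccl4 and −0.90 to 3.16 for Ccl7. The interaction reversed for Ccl1 (0.23 by limma with or without moderation, −1.97 to 1.62 in leave-outs), for Ccl3 (0.58 by limma with or without moderation, 0.072 without both c-Kit KO libraries of number 1, left out for their low positive controls, −1.67 to 2.26 in leave-outs) and for Ccl7 (−0.17 with positive control scaling, −0.032 by DESeq2, −0.052 with background subtracted, −1.66 to 2.39 in leave-outs). The cause was not tested. Positive control scaling put the median of all genes at 0.17 and 0.15 after stimulation and at −0.08 between genotypes at rest and after it. Each group had 3 libraries, and Ccl24 without stimulation and Ccl3 in unstimulated replicate 3 were near background. The size of difference that could be detected was not computed.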
